A study of Mus musculus with 3 samples.

Results

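Transcription of 45 genes of the extracellular matrix and its remodelling was followed in a mouse pancreatic cancer cell line. Cells without and with doxycycline, which switches on a hairpin RNA directed at PDX1, were compared. The genes were taken by symbol from a list of fibronectin, collagens, laminins, proteoglycans, lysyl oxidases, lysyl hydroxylases, matrix metalloproteinases (MMPs) and their tissue inhibitors (TIMPs). All 45 were found among the 22658 gene models of the data. The rule used symbols alone, but the list was drawn up with earlier results of these data known. They were grouped by role into 9 interstitial collagens, 13 basement membrane genes, 7 matrix glycoproteins, 3 proteoglycans, 5 cross-linking enzymes, 5 proteases and 3 protease inhibitors.

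The cells were the mouse pancreatic cancer line NB490, selected with puromycin for stable carriage of a short hairpin RNA (shRNA) that doxycycline switches on and that is directed at PDX1, a homeodomain transcription factor of pancreas development. One library came from cells given doxycycline for 48 h. A second came from a culture that had grown out under doxycycline lasting over 3 weeks. The last came from uninduced cells, which carried the same shRNA construct and had no doxycycline. Every culture was labelled with 2 mM bromouridine for 30 min before the labelled RNA was captured (Bru-seq), so reads report RNA made in that window and not stored mRNA. A doxycycline-treated line without the shRNA was not analysed here, so an action of doxycycline and one of the shRNA cannot be told apart. Whether the line is a single clone was not stated in the labels.

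The extracellular matrix is the secreted scaffold around cells. Epithelial cells rest on a basement membrane, a sheet of type IV collagen and laminin trimers joined by nidogen and the heparan sulfate proteoglycans perlecan and agrin. Interstitial matrix consists of fibrillar collagens, fibronectin and fibrillin, hardened when lysyl oxidases cross-link the fibers and cleared by MMPs, which TIMPs inhibit. In pancreatic ductal adenocarcinoma, a tumour known for its dense stroma, much of the interstitial collagen is known to come from fibroblasts, while the carcinoma cells also make matrix of their own.

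Library sizes behind the deposited values were 51006774 reads (uninduced), 48418864 reads (48 h) and 41632296 reads (grown-out), of which 79.3%, 78.1% and 79.4% fell in gene models. Levels are RPKM, read counts divided by gene model length and library size, and introns count where the model covers the whole gene span. Among the members, Col7a1, Timp1 and Timp2 have models shorter than their span, Timp1 with 890 of 4572 bp. As each condition had a single library, no difference has a replicate check, no test was possible and no p-value is given. Each fold carries a 95% interval from the read counts that covers counting error only, since a single library gives no spread between cultures. Reads without molecular identifiers are not independent molecules, so the interval may be too narrow even for counting error. A difference is called beyond counting error where that interval leaves out no change, and past 1.5-fold or 2-fold where, in addition, the ratio of RPKM plus a pseudocount of 0.05 is of that size. A gene counted as measured with a mean of at least 0.5 RPKM over the 3 libraries, which 7915 genes reached. In bulk RNA, fewer cells of a type and less RNA per cell cannot be told apart. Pdx1 itself had 1.59 RPKM in uninduced, 1.05 RPKM in 48 h and 1.41 RPKM in grown-out cells. Its level was 1.51-fold lower at 48 h (95% interval 1.29 to 1.77) and 1.12-fold lower in grown-out cells (0.963 to 1.31), the second within counting error. These values are of newly made RNA. Stored Pdx1 mRNA and PDX1 protein were not measured, so the extent of the knockdown is not known from them.

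Of the 45 matrix genes, 16 were measured. A further 13 lay below the minimum but had at least 100 reads over the 3 libraries, and 16 had fewer. The basement membrane group held 7 of the 16 measured genes, whereas the interstitial collagens, glycoproteins and proteases held 1 each. Proteoglycans, cross-linking enzymes and protease inhibitors held 2 each. A gene can reach the minimum through the library where it is highest, so counts below describe the measured genes and not all 45. In the uninduced library the measured genes stood between the 7.13th percentile of all measured genes (Lamb3, 0.619 RPKM) and the 91.0th percentile (Sdc4, 6.04 RPKM).

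**Figure D1:**
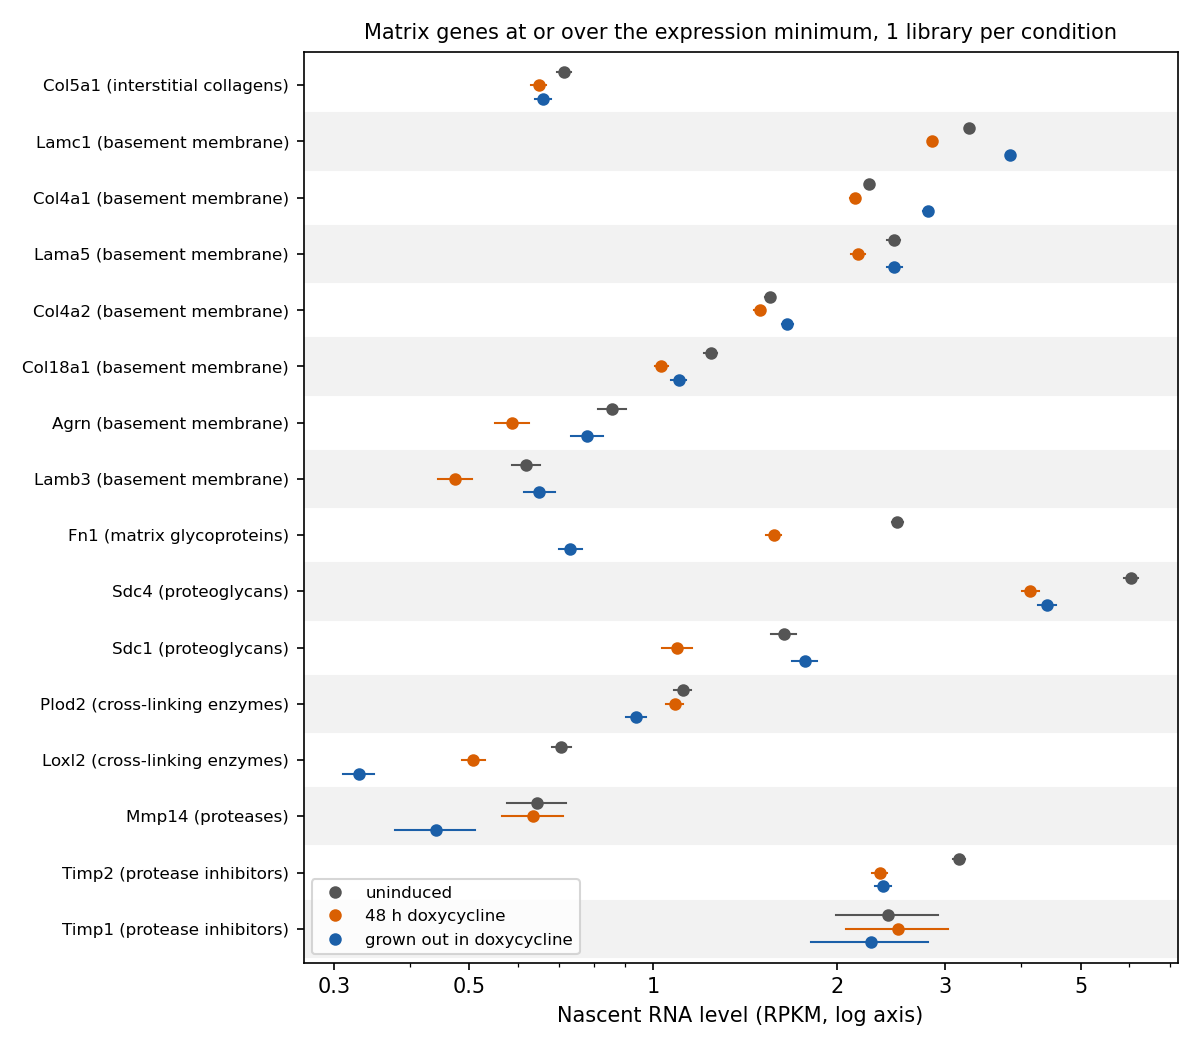
Nascent RNA level of the 16 measured matrix genes (RPKM, log axis) in the uninduced, 48 h doxycycline and grown-out libraries, 1 library each, grouped by role; bars are 95% Poisson intervals of the read counts. Fn1 is lower at 48 h and lower again in the grown-out library (0.731 RPKM), while Lamc1 and Col4a1 are highest in the grown-out library.

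After 48 h of doxycycline, 15 of the 16 measured genes were lower than in uninduced cells, by small amounts. The difference was beyond counting error and lower for 13 of them, against 30.0% of all measured genes, and higher for 0, against 30.1%. Only Fn1 was past 1.5-fold lower, where 3.27% of all measured genes were, and none was past 1.5-fold higher, where 0.392% were. None was past 2-fold in either direction, against backgrounds of 0.720% lower and 0.0379% higher. The median log2 ratio of the 16 was -0.23, and that of all measured genes was 0.00. With a pseudocount of 0.5 the log2 ratio of Fn1 was -0.54, short of 1.5-fold. Over the 29 matrix genes with at least 100 reads and no pseudocount, the median was -0.39, beside -0.01 for all genes so chosen. Timp1 was the measured gene not lower at 48 h, with an interval that spans no change.

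In grown-out cells the genes spread in both directions relative to uninduced cells. Beyond counting error, 9 of 16 were lower, against 29.5% of all measured genes, and 4 (Col4a1, Col4a2, Lamc1 and Sdc1) were higher, against 33.6%. Fn1 and Loxl2 were past 1.5-fold lower, against 2.94% of all measured genes, and none was past 1.5-fold higher, against 1.07%. Past 2-fold, Fn1 was lower where the background was 0.720%, and none was higher where it was 0.164%. The median log2 ratio of the 16 was -0.12, and that of all measured genes 0.01. With a pseudocount of 0.5, Loxl2 at -0.54 was short of 1.5-fold. Loxl2 reached the minimum with a mean of 0.515 RPKM, while its grown-out level of 0.330 RPKM lay below it. Its place among the measured genes thus rests on its higher levels in the other libraries.

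Between the doxycycline libraries, 9 of 16 genes were higher in grown-out than in 48 h cells beyond counting error, against 35.6% of all measured genes. Another 4 (Fn1, Loxl2, Mmp14 and Plod2) were lower, against 32.0%. Fn1 was the gene past 1.5-fold lower (background 2.26%) and past 2-fold lower (0.316%). Sdc1 was past 1.5-fold higher (background 3.59%) and none was past 2-fold higher (0.708%). With a pseudocount of 0.5, Fn1 at -0.75 was short of 2-fold and Sdc1 at 0.51 short of 1.5-fold. The median log2 ratio was 0.09, beside 0.01 for all measured genes. The 3 comparisons share libraries, so they are not independent of each other. Read by gene, the uninduced library held the lowest level for 0 of the 16, the 48 h library for 11 and the grown-out library for 5. Over all measured genes these shares were 30.4%, 34.8% and 34.8%.

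**Figure D2:**
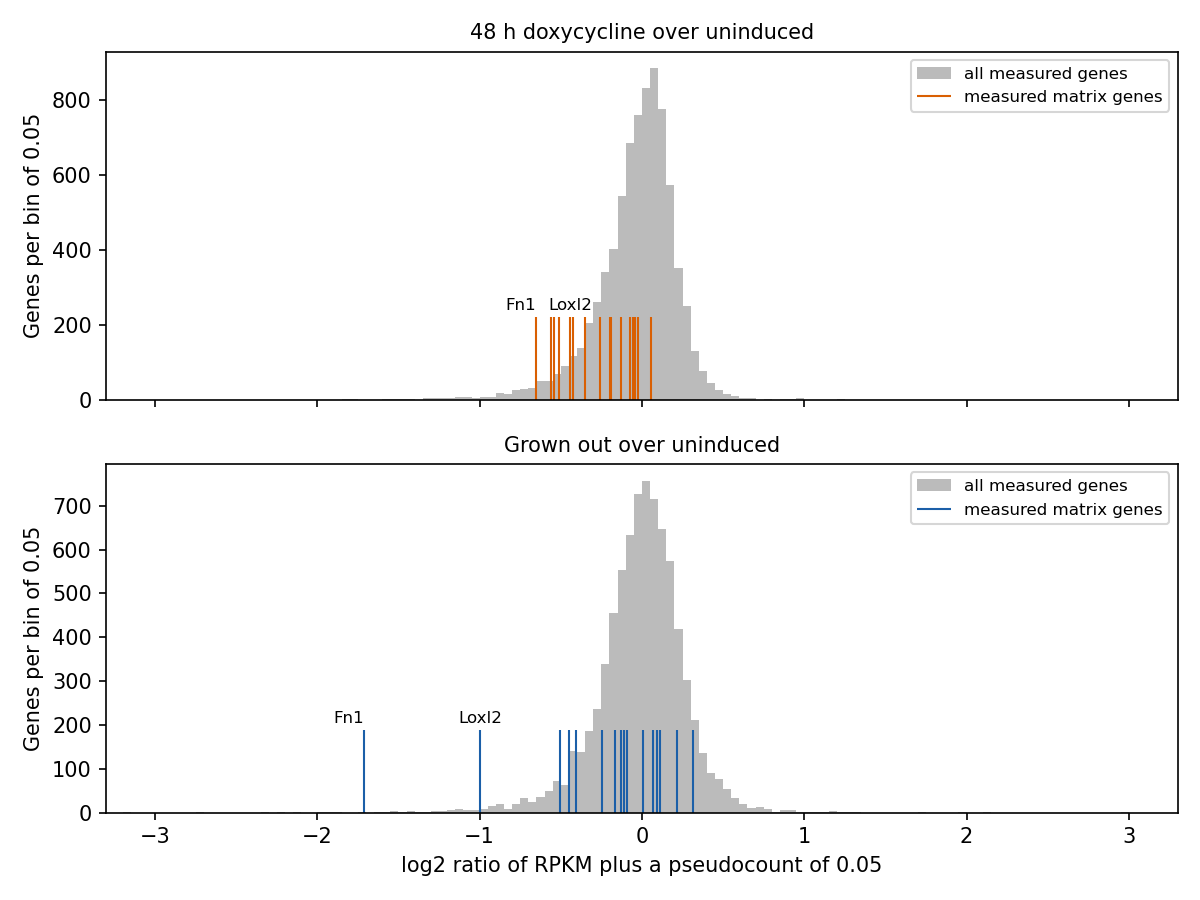
Histogram of log2 ratios (RPKM plus 0.05) over the 7915 measured genes, in grey, with the 16 measured matrix genes as coloured lines, for 48 h over uninduced (top) and grown-out over uninduced (bottom). At 48 h all matrix genes but Timp1 lie left of 0; in the grown-out library Fn1 (-1.71) and Loxl2 (-0.996) stand apart from the other 14.

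Fibronectin gave the largest difference of any measured matrix gene. Fn1 (chromosome 1, 71632097 to 71699745, minus strand; coordinates as in the files, in a genome build that the sources used here do not settle) encodes the glycoprotein that cells assemble into fibrils through integrins. It had 2.51 RPKM in uninduced cells (Poisson 95% interval 2.45 to 2.56), 1.57 RPKM at 48 h (1.53 to 1.62) and 0.731 RPKM in grown-out cells (0.700 to 0.763). None of these intervals overlap, and the levels descend along the order of exposure. How many of all genes share this descending order was not counted, and the grown-out library was the lowest for 34.8% of all measured genes. Where the order is named for other genes below, it is a description only. The level was 1.59-fold lower at 48 h than in uninduced cells (1.54 to 1.65), 3.43-fold lower in grown-out than in uninduced cells (3.27 to 3.60), and 2.15-fold lower in grown-out than in 48 h cells (2.04 to 2.27). The comparisons rest on 8644, 5152 and 2059 reads in that order of libraries.

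The other glycoproteins with at least 100 reads lay below the minimum. Fbn1 (chromosome 2, 125126330 to 125332174), which encodes the microfibril protein fibrillin-1, had 0.136 RPKM in uninduced, 0.0909 RPKM in 48 h and 0.0244 RPKM in grown-out cells. As for Fn1, each level was below the one before it with no overlap of the counting intervals. The Fbn1 level was 1.5-fold lower at 48 h (1.38 to 1.63) and 5.60-fold lower in grown-out cells (4.84 to 6.50) than in uninduced cells. Sparc, a collagen-binding matricellular protein, had 0.464, 0.348 and 0.367 RPKM in uninduced, 48 h and grown-out cells. Its level was lower than in uninduced cells by 1.33-fold at 48 h (1.18 to 1.51) and by 1.26-fold in grown-out cells (1.11 to 1.44).

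**Figure D3:**
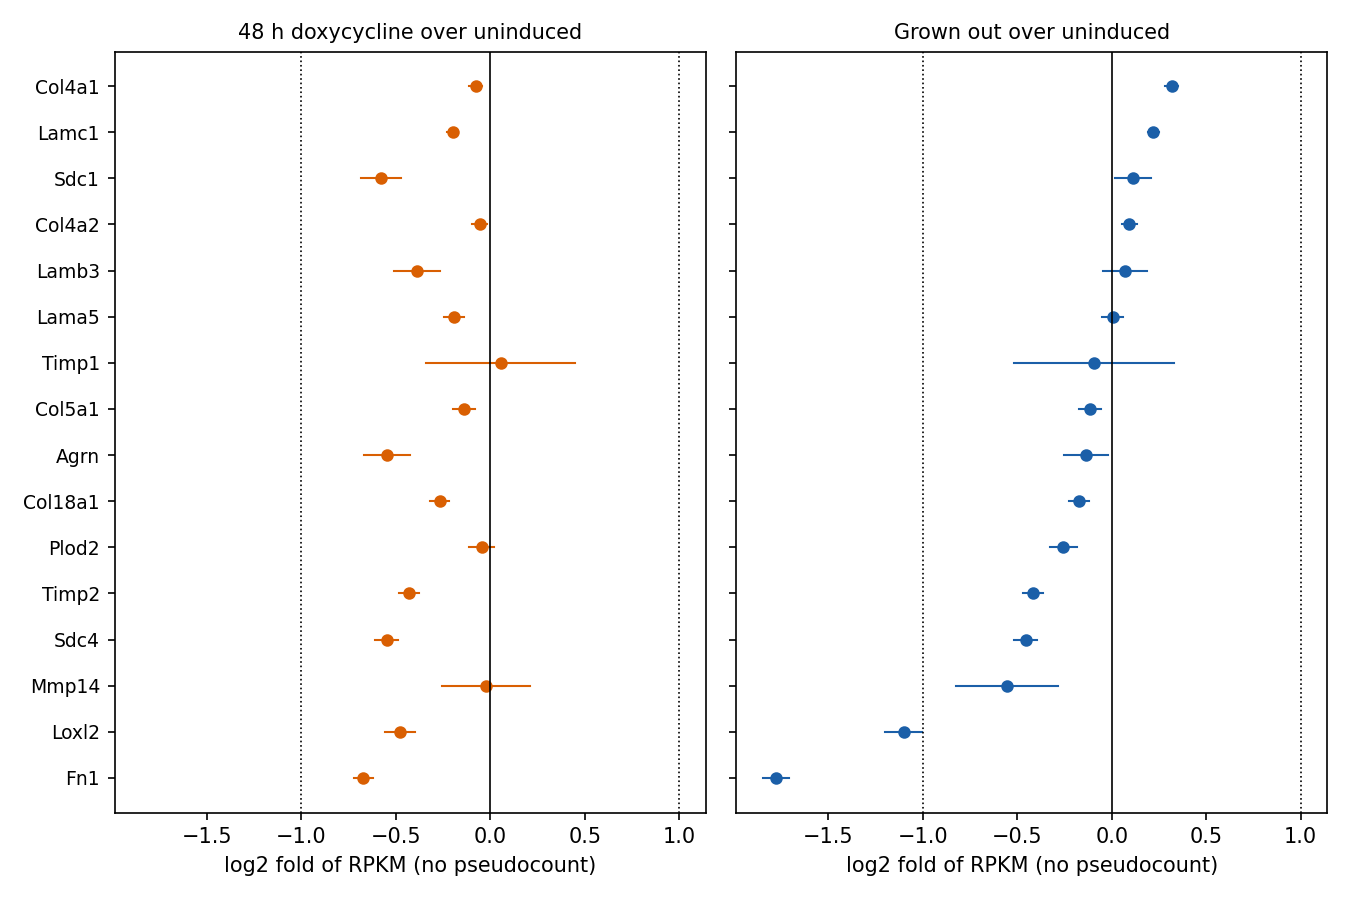
Log2 fold of RPKM without pseudocount for the 16 measured matrix genes, 48 h over uninduced (left) and grown-out over uninduced (right), sorted by the right panel; bars are 95% counting intervals and dotted lines mark 2-fold. At 48 h the points lie at or left of 0 apart from Timp1, and in the grown-out library Col4a1, Lamc1, Sdc1 and Col4a2 have intervals wholly right of 0.

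Among basement membrane genes the 7 measured members had their lowest level at 48 h. Lamc1 (chromosome 1, 155066052 to 155179916), the gamma 1 chain shared by most laminins, was the most transcribed of them, with 3.28 RPKM in uninduced (3.24 to 3.33), 2.86 RPKM in 48 h (2.82 to 2.91) and 3.82 RPKM in grown-out cells (3.77 to 3.88). It was 1.15-fold lower at 48 h than in uninduced cells (1.12 to 1.17) and 1.16-fold higher in grown-out than in uninduced cells (1.14 to 1.19). The type IV collagen chains Col4a1 and Col4a2, which form the network of the basement membrane, had the same order of libraries. Col4a1 had 2.26, 2.14 and 2.81 RPKM in uninduced, 48 h and grown-out cells, and Col4a2 had 1.55, 1.49 and 1.66 RPKM. In grown-out cells the level was 1.25-fold higher for Col4a1 (1.22 to 1.28) and 1.07-fold higher for Col4a2 (1.04 to 1.10) than in uninduced cells, and the Col4a1 ratio exceeds that of its partner with no overlap of the intervals. At 48 h both were lower, by 1.06-fold (1.03 to 1.08) and 1.04-fold (1.01 to 1.07).

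Col4a1 and Col4a2 lie head to head on chromosome 8, at 11198423 to 11312826 on the minus strand and 11312829 to 11449287 on the plus strand in the files. The starts in the RefSeq promoter table (GRCm38.p6) are 21 bases apart and the transcripts cover the stretch between them together. That stretch, at chr8:11312805-11312826 on the plus strand, is shown because the pair is read in opposite directions across it; capitals mark a GC box, GGGCGG.
Col4a1 and Col4a2: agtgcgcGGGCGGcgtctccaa

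The other measured basement membrane genes differed mainly at 48 h. Agrn, which encodes agrin, had 0.856, 0.587 and 0.779 RPKM in uninduced, 48 h and grown-out cells and was 1.46-fold lower at 48 h than in uninduced cells (1.34 to 1.59). Lamb3, the beta 3 chain of the epithelial laminin-332, had 0.619, 0.474 and 0.651 RPKM and was 1.31-fold lower at 48 h (1.20 to 1.42), with the grown-out level within counting error of the uninduced one. For Lama5, the alpha 5 chain of laminin-511, levels were 2.47, 2.16 and 2.48 RPKM, and for Col18a1, the precursor of endostatin, 1.24, 1.03 and 1.10 RPKM. Thus the grown-out level was at or near the uninduced one for Lama5 and stayed lower for Col18a1, by 1.13-fold (1.09 to 1.17).

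Below the minimum, 5 basement membrane genes still had 100 reads or more. Hspg2, which encodes perlecan, had 0.363, 0.270 and 0.351 RPKM in uninduced, 48 h and grown-out cells, an order like that of Agrn. Lamb2, the laminin beta 2 chain, had 0.314, 0.267 and 0.279 RPKM with no difference beyond counting error. Col7a1, the anchoring fibril collagen, had 0.223, 0.162 and 0.112 RPKM and was 2.00-fold lower in grown-out than in uninduced cells (1.64 to 2.44). Its ratio falls just short of 2-fold, and its model overlaps a microRNA model, Mir711, on the same strand. Lama3, the alpha 3 chain of laminin-332, was far lower in all libraries, at 0.00213, 0.00324 and 0.00347 RPKM, whereas its partner Lamb3 was measured. Nid1, which encodes the laminin and collagen IV linker nidogen-1, had 0.0278, 0.0191 and 0.00579 RPKM, from 106, 69 and 18 reads. It was 1.46-fold lower at 48 h (1.07 to 2.00) and 4.81-fold lower in grown-out cells (2.90 to 8.42) than in uninduced cells.

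**Figure D4:**
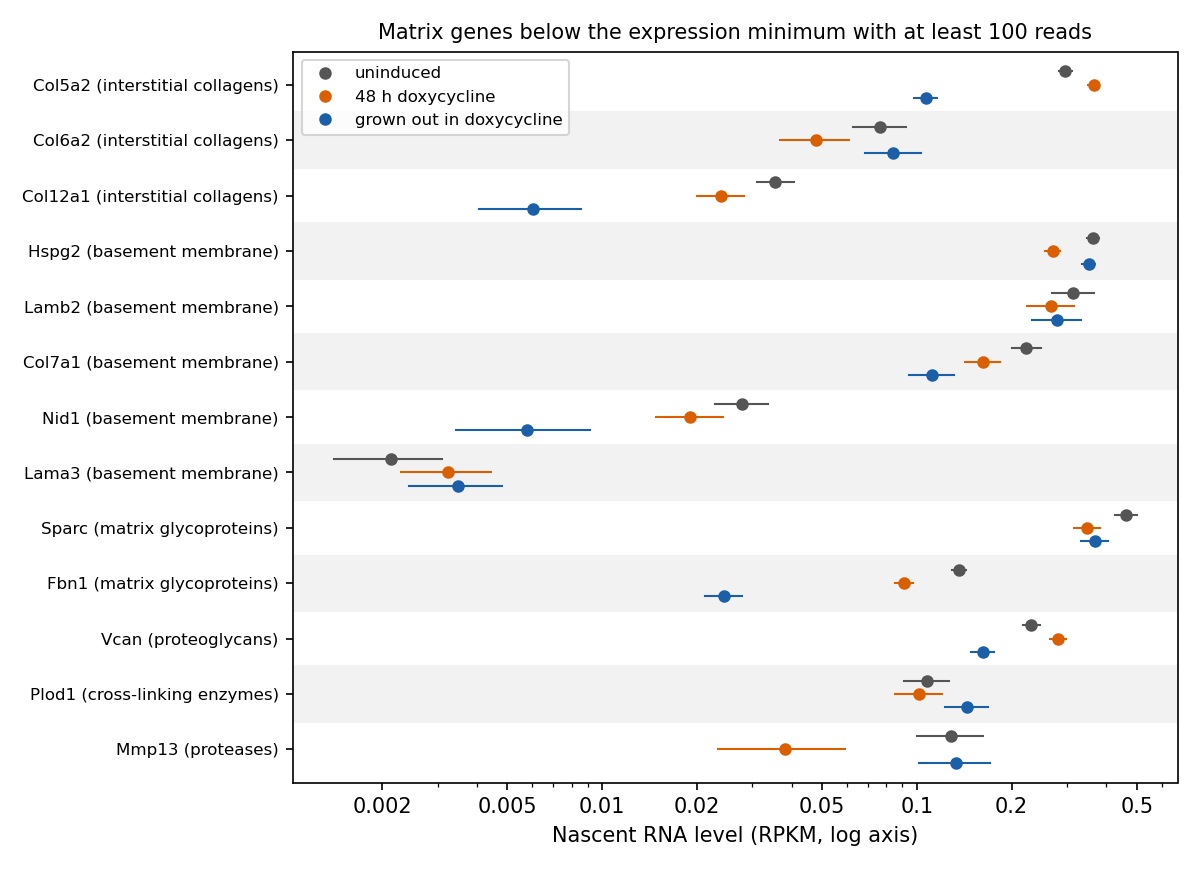
Nascent RNA level (RPKM, log axis) of the 13 matrix genes below the minimum with at least 100 reads, in uninduced, 48 h and grown-out cells, 1 library each; bars are 95% Poisson intervals. The grown-out library is far below the other libraries for Col5a2, Col12a1, Fbn1 and Nid1, and Mmp13 and Col6a2 are low at 48 h.

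Interstitial collagens were transcribed at low levels, the type V chains being the highest among them. Col5a1, a chain of the type V collagen that starts collagen I fibrils, was the measured one, with 0.715, 0.649 and 0.660 RPKM in uninduced, 48 h and grown-out cells. It was 1.10-fold lower at 48 h (1.06 to 1.14) and 1.08-fold lower in grown-out cells (1.04 to 1.13) than in uninduced cells. Its partner chain Col5a2 (chromosome 1, 45431176 to 45560127) had 0.297 RPKM in uninduced (0.284 to 0.310), 0.365 RPKM in 48 h (0.350 to 0.380) and 0.107 RPKM in grown-out cells (0.0982 to 0.116). Unlike most of the matrix genes, Col5a2 was highest at 48 h, 1.23-fold above uninduced cells (1.16 to 1.31), and in grown-out cells it was 2.78-fold lower than in uninduced cells (2.53 to 3.06). Col12a1, a fibril-associated collagen, had 0.0355, 0.0238 and 0.00602 RPKM, from 217, 138 and 30 reads, and was 5.90-fold lower in grown-out than in uninduced cells (4.02 to 8.96). Col6a2, a chain of the beaded type VI collagen, had 0.0766, 0.0478 and 0.0843 RPKM and was low at 48 h alone, by 1.60-fold against uninduced cells (1.17 to 2.22). Col6a1, which neighbours Col6a2, had 36, 15 and 32 reads in uninduced, 48 h and grown-out cells and was also low at 48 h. Its 48 h level was 2.28-fold lower than in uninduced cells (1.22 to 4.48), and the grown-out level was within counting error of the uninduced one. Col3a1, which neighbours Col5a2, had too few reads to set beside it.

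The syndecans, transmembrane heparan sulfate proteoglycans, were the most transcribed proteoglycans. Sdc4 had the highest level of all the matrix genes, at 6.04 RPKM in uninduced (5.89 to 6.20), 4.13 RPKM in 48 h (4.0 to 4.27) and 4.41 RPKM in grown-out cells (4.26 to 4.55). Both doxycycline libraries were below the uninduced one, by 1.46-fold at 48 h (1.4 to 1.52) and 1.37-fold in grown-out cells (1.31 to 1.43). Sdc1 had 1.63 RPKM in uninduced (1.56 to 1.71), 1.09 RPKM in 48 h (1.03 to 1.16) and 1.77 RPKM in grown-out cells (1.68 to 1.85). It was 1.49-fold lower at 48 h than in uninduced cells (1.39 to 1.61), 1.08-fold higher in grown-out than in uninduced cells (1.01 to 1.16) and 1.62-fold higher in grown-out than in 48 h cells (1.5 to 1.74). Vcan, which encodes the large chondroitin sulfate proteoglycan versican, ran the other way, with 0.231, 0.281 and 0.162 RPKM in uninduced, 48 h and grown-out cells. Its level was 1.21-fold higher at 48 h (1.11 to 1.32) and 1.43-fold lower in grown-out cells (1.29 to 1.58) than in uninduced cells.

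Of the measured enzymes that modify collagen lysines, the oxidase Loxl2 differed most from uninduced cells. Loxl2 (chromosome 14, 70009283 to 70095641) had 0.707 RPKM in uninduced (0.683 to 0.733), 0.508 RPKM in 48 h (0.486 to 0.530) and 0.330 RPKM in grown-out cells (0.311 to 0.349). The levels descend in the same order as those of Fn1. Loxl2 was 1.39-fold lower at 48 h (1.32 to 1.47) and 2.15-fold lower in grown-out cells (2.01 to 2.30) than in uninduced cells. With the pseudocount its grown-out log2 ratio was -0.996, just short of 2-fold. Plod2, a lysyl hydroxylase that prepares the cross-link sites, was the most transcribed enzyme of the group, with 1.12 RPKM in uninduced (1.08 to 1.15), 1.08 RPKM in 48 h (1.05 to 1.12) and 0.936 RPKM in grown-out cells (0.901 to 0.973). It was 1.19-fold lower in grown-out than in uninduced cells (1.13 to 1.26), and its 48 h level was within counting error of the uninduced one. Its relative Plod1 had 0.107, 0.102 and 0.144 RPKM and was 1.34-fold higher in grown-out than in uninduced cells (1.07 to 1.69).

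Among the MMPs, Mmp14, the membrane-anchored collagenase, was the measured one. It had 0.646 RPKM in uninduced (0.577 to 0.721), 0.635 RPKM in 48 h (0.565 to 0.712) and 0.440 RPKM in grown-out cells (0.378 to 0.510). It was 1.47-fold lower in grown-out than in uninduced cells (1.22 to 1.77), with no difference at 48 h beyond counting error. Mmp13 (chromosome 9, 7272514 to 7283333), a secreted collagenase, had 71 reads in uninduced, 20 in 48 h and 60 in grown-out cells, or 0.129, 0.0382 and 0.133 RPKM. The 48 h library alone was low, 3.37-fold below uninduced cells (2.03 to 5.84), and the grown-out level was 1.04 times the uninduced one (0.722 to 1.48). Mmp3, listed as a neighbour of Mmp13, had 2, 0 and 1 reads in uninduced, 48 h and grown-out cells and could not be compared.

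Of the TIMPs, Timp2 had 3.16 RPKM in uninduced (3.09 to 3.24), 2.35 RPKM in 48 h (2.28 to 2.41) and 2.37 RPKM in grown-out cells (2.30 to 2.44). Both doxycycline libraries were lower than the uninduced one, by 1.35-fold at 48 h (1.30 to 1.4) and 1.33-fold in grown-out cells (1.28 to 1.39), and they differed from each other by less than counting error. Timp1 had 2.42, 2.51 and 2.27 RPKM with no difference beyond counting error. The values of both inhibitors carry a limit, since the Timp2 model overlaps BC100451 and the Timp1 model lies within Gm10921, both on the same strand.

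For the members below the minimum, a second set of counts used every gene with at least 100 reads and no pseudocount, a rule chosen after seeing the data, which 11509 genes and 29 of the matrix genes met. A gene can meet it through a library where it is high. Nid1 (106, 69 and 18 reads in uninduced, 48 h and grown-out cells) and Mmp13 (71, 20 and 60) would not meet it without their uninduced reads. The counts thus describe the genes that met the rule. Relative to uninduced cells, Mmp13 was past 2-fold lower at 48 h, where 1.78% of all such genes were, and none was past 2-fold higher, where 0.330% were. In grown-out cells, 6 (Col12a1, Col5a2, Fbn1, Fn1, Loxl2 and Nid1) were past 2-fold lower than in uninduced cells, against 4.41% of all such genes, and none was past 2-fold higher, against 0.400%. The proteins of these 6 are a fibril-associated and a fibrillar collagen, fibrillin-1, fibronectin, a lysyl oxidase and nidogen-1. Between grown-out and 48 h cells, 5 of these 6, all but Loxl2, were past 2-fold lower, against 3.68%, and Mmp13 was past 2-fold higher, against 1.41%. The uninduced library held the lowest level for 1 of the 29, the 48 h library for 17 and the grown-out library for 11, whereas over all such genes these shares were 26.8%, 33.9% and 39.3%.

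Promoters of the members past 2-fold are shown where the RefSeq table (GRCm38.p6), which held 32 of the 45, had them; each runs over the 250 bases before the start, 5′ to 3′ on the strand of the gene. Fbn1 is at chr2:125506439-125506688 (minus strand), Nid1 at chr13:13437352-13437601 (plus) and Mmp13 at chr9:7272264-7272513 (plus). Capitals mark a GC box, GGGCGG, in Fbn1, a TEAD motif, GGAATG, an inverted CCAAT box and a GC box in Nid1, and an inverted AP-1 motif, TGAGTCA, and a TATA box, TATAAA, in Mmp13.
Fbn1: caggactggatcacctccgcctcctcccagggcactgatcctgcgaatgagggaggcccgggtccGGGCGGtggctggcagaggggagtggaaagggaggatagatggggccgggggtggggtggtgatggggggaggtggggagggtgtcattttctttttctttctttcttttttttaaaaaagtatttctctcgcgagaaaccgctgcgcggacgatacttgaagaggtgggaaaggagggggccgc
Nid1: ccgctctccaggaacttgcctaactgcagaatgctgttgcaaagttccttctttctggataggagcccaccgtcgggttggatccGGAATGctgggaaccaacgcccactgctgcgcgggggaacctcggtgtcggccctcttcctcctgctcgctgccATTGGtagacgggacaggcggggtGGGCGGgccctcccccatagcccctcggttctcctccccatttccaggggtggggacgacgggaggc
Mmp13: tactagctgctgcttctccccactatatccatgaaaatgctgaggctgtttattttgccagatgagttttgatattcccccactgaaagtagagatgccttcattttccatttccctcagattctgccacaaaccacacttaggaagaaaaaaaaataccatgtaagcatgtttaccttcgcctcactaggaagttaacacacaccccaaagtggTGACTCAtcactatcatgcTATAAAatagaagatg

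Searched on both strands, GGGCGG stood in 32.7% of all 32851 windows of that length in the table and in 23 of the 32 members held there. CCAAT stood in 33.8% of all windows and 11 members, GGAATG in 12.6% and 6, TATAAA in 12.4% and 6, and CAGGTG, the E-box read by Snail and Zeb factors, in 17.2% and 4. TGAGTCA stood in 4.46% of all windows and in 4 members (Col6a1, Ecm1, Mmp13 and Mmp3). The homeodomain core TAATTA and the cyclic AMP element TGACGTCA, in 4.84% and 1.55% of all windows, stood in 0 of the 32. The percentages count windows, whereas a member was counted once if any window under its symbol held the letters. A member with several starts thus had more chances, and the percentages and member counts are not like shares. These matches describe letters in a window and no binding was measured.

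Another 16 matrix genes had under 100 reads over the 3 libraries. Tnc, which encodes tenascin-C, had 63 reads in uninduced, 25 in 48 h and 8 in grown-out cells and was 6.43-fold lower in grown-out than in uninduced cells (3.07 to 15.5). Timp3, a matrix-bound inhibitor, had 33, 12 and 4 reads, a ratio of 6.73-fold lower in grown-out than in uninduced cells (2.40 to 26.2). Loxl1, a lysyl oxidase of elastic fibers, had 20, 7 and 2 reads. The order of these 3 genes over the libraries was that of Fn1, on far fewer reads. Col1a1, the main chain of collagen I, had 32, 13 and 12 reads, and Col6a1 had 36, 15 and 32. The gelatinase Mmp2 had 14, 26 and 1 reads, and the glycoprotein gene Ecm1 had 29, 27 and 28. Counts this small place a gene among the libraries only loosely. Fstl1, a secreted follistatin-like glycoprotein, had 8, 6 and 1 reads, and Col3a1, the collagen III chain, had 2, 8 and 0. Col6a3, the third chain of type VI collagen, had 2, 4 and 6 reads in uninduced, 48 h and grown-out cells.

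The remaining 6 had fewer than 10 reads in all. Tgfbi, a secreted adhesion protein induced by TGF-beta, had 3, 2 and 3 reads. Lama4, a laminin alpha chain known from vessels, had 2, 1 and 0, Col1a2, the second chain of collagen I, had 0, 2 and 2, and Mmp3 was as given above. Lox, the founding lysyl oxidase, and Mmp9, a gelatinase, had 0 reads in every library. A count of 0 allows up to 3 reads per library, which is 0.00472, 0.00497 and 0.00578 RPKM for Lox and 0.00774, 0.00816 and 0.00949 RPKM for Mmp9 in uninduced, 48 h and grown-out cells. Transcription of Lox and Mmp9 was not detectable at this depth.

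Other genes of the matrix and its turnover, 107 in a list that excludes the 45, were set beside them, and 32 of the 106 found were measured. At 48 h, 18 of the 32 were lower and 6 higher than in uninduced cells beyond counting error, against 30.0% and 30.1% of all measured genes, with a median log2 ratio of -0.11. In grown-out cells, 17 were lower and 8 higher than in uninduced cells, against 29.5% and 33.6%, with a median of -0.12. Ctgf, which encodes the matricellular protein CCN2 and is a known target of the YAP and TEAD factors, was the 1 past 2-fold, in grown-out cells, where 0.720% of all measured genes were. It had 12.3 RPKM in uninduced (11.8 to 12.8), 7.11 RPKM in 48 h (6.70 to 7.54) and 5.75 RPKM in grown-out cells (5.35 to 6.17), the same descending order as Fn1 and Loxl2. Ctgf was 1.73-fold lower at 48 h (1.60 to 1.86) and 2.14-fold lower in grown-out cells (1.97 to 2.32) than in uninduced cells. Past 1.5-fold, 3 of the list (Cd44, Ctgf and Plaur) were lower at 48 h, against 3.27% of all measured genes, and 4 (Ctgf, Cyr61, Pcolce and Thbs1) lower in grown-out cells, against 2.94%, than in uninduced cells. The 5 of these other than Ctgf fall outside the rule for named genes and were named after their values were seen.

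Marker lists were read for cells other than the tumour line. The epithelial markers summed to 43.6 RPKM in uninduced, 37.4 RPKM in 48 h and 40.3 RPKM in grown-out cells, with Cdh1, Krt8, Krt18 and Krt19 measured. Most of the difference at 48 h lay in Krt19, with 13.6, 8.01 and 10.1 RPKM in uninduced, 48 h and grown-out cells, whereas Krt18 had 14.2, 15.1 and 13.5 RPKM. The Krt19 model holds 1373 bp of a span of 5108 bp, so its level is not on a par with those of whole-span models. Epcam, the fifth, lay below the minimum at 0.0984, 0.0736 and 0.0270 RPKM. Of 10 fibroblast markers, 0 were measured and 3 (Lum, Pdgfrb and Thy1) had no read, and the list summed to 0.0965, 0.0694 and 0.0564 RPKM. Its highest gene, Pdgfra, had 0.0478, 0.0436 and 0.0330 RPKM, and Dcn had 1 read in all. The fibroblast list holds the members Col1a1, Col1a2 and Col3a1, and its sum was lowest in the grown-out library. The same library held the lowest level of Col12a1, Col5a2, Fbn1, Fn1, Loxl2 and Nid1. The part of fibroblasts in those lower levels was not tested. Stellate and smooth muscle markers summed to 0.00648, 0.00746 and 0.00719 RPKM, with 3 of 4 at 0. Endothelial markers summed to 0.221, 0.213 and 0.224 RPKM and acinar markers to 0.0871, 0.0811 and 0.0836 RPKM, with none measured. Within the endothelial list the genes differed, as Kdr had 181, 170 and 70 reads and was 2.11-fold lower in grown-out than in uninduced cells (1.59 to 2.82), while Pecam1 had 2, 3.54 and 7 reads on a short model. Immune markers summed to 0.996, 0.920 and 0.901 RPKM, nearly all from Cd68, with Csf1r and Lyz2 at 0.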

How the data were processed

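Bru-labelled RNA was sequenced in 3 libraries, 1 per condition. Without settings, the submitters' processing notes list TopHat 1.4.1, Bowtie 0.12.8, bedtools 2.16.2 and CASAVA 1.8.2, and the human build hg19, whereas the gene symbols are those of mouse and models on chromosome 1 reach position 197002909. The build is therefore not given in the sources used here, and coordinates are printed as in the files. They need not match the GRCm38.p6 positions of the promoters. For Fbn1, on the minus strand, the model ends at 125332174 in the files, whereas the promoter begins at 125506439. Estimated counts, as deposited, are per the file headers reads per whole gene model; 47.3% to 48.5% of those above 0 are whole within 0.01 of a read. RPKM values, as deposited, are per the file headers these reads scaled by model length and library total, so reads from introns enter and long genes gather more reads. The kit's strand marking is given, per the labels' protocols, for certain samples only, so antisense reads may enter a value.

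Log2 ratios used the deposited RPKM plus a pseudocount of 0.05. Fold intervals are exact conditional binomial 95% intervals from the counts, level intervals are Poisson, and both cover counting error only. Measured genes had a mean of at least 0.5 RPKM and a model of at least 300 bp; 138 models with a repeated symbol or a span over 3000000 bp were left out. Counts were read against all measured genes, and no p-value was computed. Alternatives were pseudocounts of 0.5 and 0.01, no minimum, a minimum of 2 RPKM, models of at least 3000 bp, edgeR 4.0.16 TMM and DESeq2 1.42.0 scaling of rounded counts, leaving out overlapping models and, chosen after seeing the data, at least 100 reads with no pseudocount. Python 3.11.15 with scipy 1.17.1 and R 4.3.3 were used. The members, role groups and other lists were chosen with earlier results of these data known. Genes given in full are the measured members past 1.5-fold in any comparison and the most transcribed member of each role; the other members have levels and, below the minimum, folds chosen for this text after their values were seen. Promoter sequences are RefSeq's (GRCm38.p6).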

Additional observations from a re-analysis of the deposited data

Results flagged for a closer look

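The 48 h and the grown-out libraries differed from the uninduced library in opposite directions, each beyond counting error, for 6 of the 29 matrix genes with at least 100 reads. The difference was not tested, since each condition had 1 library and both comparisons share the uninduced one. Given as the log2 ratio of grown-out over 48 h cells, 4 of these genes were lower at 48 h and higher in grown-out cells than in uninduced cells: Sdc1 at 0.67, Lamc1 at 0.41, Col4a1 at 0.39 and Col4a2 at 0.15. Among all 11509 genes with at least 100 reads, 6.86% had this pattern. The other 2, Col5a2 at -1.40 and Vcan at -0.64, were higher at 48 h and lower in grown-out cells, as were 6.52% of all such genes. For 2 of 29 genes that is near the share over all genes, so this pattern does not set the matrix genes apart.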

How the results depend on the processing

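No paired analysis was possible because each condition had 1 library. No median ratio, and no single-gene ratio beyond counting error, changed direction under the alternatives run for it. Counts could only stay or move, and single-gene ratios were not recomputed under the rule of at least 100 reads. Of 345 single-gene ratios recomputed, 21 moved by more than 0.5 times the log2 width of their counting interval. Of these, 18 moved with a pseudocount of 0.5 and 3 with DESeq2 size factors. TMM scaling, DESeq2 scaling, models of at least 3000 bp and leaving out overlapping models kept every count within 1.5 times. Counts below give members lower or higher in the first library named. Shares over all genes are given above only for past 2-fold under the rule of at least 100 reads. The other counts below have no such share beside them, so they describe the members and do not set them against other genes. With at least 100 reads and no pseudocount (29 members), at 48 h over uninduced the median log2 ratio was -0.39, 21 were lower and 2 higher beyond counting error, 4 were past 1.5-fold lower and 1 past 2-fold lower. For grown-out over uninduced, 16 were lower beyond counting error, 7 past 1.5-fold lower and 6 past 2-fold lower. For grown-out over 48 h, 10 were lower beyond counting error, 7 past 1.5-fold lower and 3 higher, 5 past 2-fold lower and 1 higher. With no minimum (45 members), at 48 h over uninduced 26 were lower and 2 higher beyond counting error, 2 past 1.5-fold lower and 1 past 2-fold lower. For grown-out over uninduced these were 21 lower beyond counting error, 6 past 1.5-fold and 3 past 2-fold. For grown-out over 48 h the median was 0.015, with 13 lower and 14 higher beyond counting error, 4 past 1.5-fold lower and 2 higher, and 2 past 2-fold lower and 1 higher. With a minimum of 2 RPKM (6 members), at 48 h over uninduced 5 were lower beyond counting error and 0 past 1.5-fold. For grown-out over uninduced the median was -0.042, with 2 lower and 2 higher beyond counting error and 0 past 1.5-fold or 2-fold lower. For grown-out over 48 h, 4 were higher and 0 lower beyond counting error, with 0 past 1.5-fold in either direction and 0 past 2-fold lower. With a pseudocount of 0.5, 0 were past 1.5-fold lower at 48 h and 1 in grown-out cells over uninduced, and for grown-out over 48 h 0 were past 1.5-fold higher and 0 past 2-fold lower. With 0.01, 2 were past 2-fold lower in grown-out over uninduced cells and 2 past 1.5-fold lower in grown-out over 48 h cells. The minimum changes how many members are counted, and the pseudocount shrinks ratios of low genes by construction. With 1 library per condition, spread between cultures is unknown.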

Other observations

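Of the other matrix genes, 61 had at least 100 reads, 32 of them measured and 29 below the minimum, and were compared without a pseudocount; those named here were named after their values were seen. Relative to uninduced cells, 9 were past 2-fold lower in grown-out cells (Adamts1, Adamts9, Col11a1, Ctgf, Hpse, Plat, Reck, Tgm2 and Tll1), against 4.41% of all genes with at least 100 reads, and none was past 2-fold higher, against 0.400%. At 48 h, 3 were past 2-fold lower (Has3, Hpse and Plat), against 1.78%, and none higher, against 0.330%. Adamts1 (56, 34 and 18 reads in uninduced, 48 h and grown-out cells) and Has3 (43, 18 and 48) would not reach 100 reads without their uninduced reads. Plat, which encodes tissue plasminogen activator, had 0.410 RPKM in uninduced, 0.158 RPKM in 48 h and 0.0804 RPKM in grown-out cells, a descending order like that of Fn1. Adamts9, a secreted protease that cleaves versican, had 0.119, 0.0756 and 0.0160 RPKM in the same libraries. Col11a1, a fibrillar collagen that co-assembles with type V chains, had 0.0723, 0.111 and 0.0358 RPKM, highest at 48 h and lowest in grown-out cells, the order seen for Col5a2. Thrombospondin-1, encoded by Thbs1, shared that order at higher levels, with 1.57, 2.19 and 0.886 RPKM.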
